A study of Rattus norvegicus with 12 samples.

Results

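The kinases of the MAP kinase (MAPK) cascade and the Dusp phosphatases were followed through the colon of 12 male Wistar rats. Members were all probes, control spots aside, whose gene name in the array files began with Mapk, Map2k, Map3k, Map4k or Dusp and a digit. This gave 75 of the 30367 probes, for 67 genes. By tier, 6 probes belonged to MAP4K genes, 15 to MAP3K genes, 8 to MAP2K genes, 12 to MAPK genes and 9 to adaptors and scaffolds named after a kinase. The phosphatases had 11 probes of classical Dusp genes, the MAP kinase phosphatases, and 14 of other Dusp genes. All 67 gene names were found in a current RefSeq annotation of the rat, 5 of them under a newer symbol, among which Map3k7ip1 is now Tab1, Map3k7ip2 is Tab2 and Map2k1ip1 is Lamtor3.

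Group C held 4 rats (C1 to C4) that stayed with their dams and received placebo, which was saline by gavage. The 4 rats of Group M (M5 to M8) received the same placebo but had undergone neonatal maternal separation (NMS), which meant 180 min per day away from the dam between postnatal days 2 and 14. The 4 rats of Group D (D9 to D12) underwent NMS and were given VSL#3, a mixture of live probiotic bacteria, by gavage every day from day 3 to day 60, in a dose that the labels and the study's methods give differently. All 12 rats, controls included, had colorectal distension before the colon was collected at day 60, so every difference below is one between distended colons. The tissue was a piece of whole distal colon with all of its cell types, and in such tissue fewer cells of a type and less RNA per cell cannot be told apart. The study analysed 11 of the 12 arrays, and gives no reason for leaving out D12. Those 11 arrays are used below unless all 12 are named.

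In the cascade, a MAP4K or a small GTPase activates a MAP3K, the MAP3K phosphorylates a MAP2K, and the MAP2K phosphorylates a MAP kinase on a threonine and a tyrosine of its activation loop. Its main branches end in ERK (such as Mapk3), in JNK (Mapk8, Mapk9 and Mapk10) and in p38 (Mapk11 to Mapk14), which carry growth factor, stress and inflammatory signals in the gut. The classical Dusp phosphatases remove both phosphates again, and many of them are transcribed as a result of MAP kinase activity and so act as feedback. The arrays measured RNA, not phosphorylation, so that the activity of the cascade was not observed.

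Signals are log2 values from which the 75th percentile of the same array was taken off, so that 0 is the level of that percentile and a difference of 1 is 2-fold. On each array 75.5% to 77.5% of spots passed the scanner software's test of lying well above background. Of the member probes, 60 were above background on all 12 arrays and 11 on some of them. Mapk8ip2, Dusp15, Dusp21 and Dusp27 were above it on none. They count in the totals and tier medians below, and no level of theirs is given. No member was at background on every array of 1 group and above it on every array of another. Of the marker genes fixed for the tissue, those of colonic epithelium, goblet cells and smooth muscle were all above background on every array. Among 4 genes listed as not colonic, Alb of the liver and Myh6 of the heart were not above background on any array. Ins1 and Pga5, of the same list, were above background on 12 and 7 of 12 arrays, so that this list was dim only in part.

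Single rats stood apart from their groups. The summed signal of 5 T cell markers (Cd3e, Cd3d, Cd3g, Cd8a and Cd4) lay between 0.626 and 1.01 in C1, C3 and C4 but was 4.74 in C2. In Group M it was 4.09 in M5, 2.85 in M7 and 2.80 in M8 but 0.629 in M6, and in Group D it was 0.612 to 1.13 in D9 to D11 but 8.90 in D12. Of the B cell markers Cd79b, a part of the B cell receptor, was 0.61 to 2.17 on the log2 scale in C2, M5, M7, M8 and D12 and -3.77 to -1.83 in the other 7. Ms4a1 (CD20), above background on 7 of 12 arrays, was -2.55 to -0.62 and -8.71 to -5.44. The summed signal of the macrophage markers was 2.36 to 3.10 in these 5 rats and 1.60 to 2.04 in the others. That of the neutrophil markers was 3.60 in M7, 0.346 to 0.547 in C2, M5, M8 and D12 and 0.0991 to 0.152 in the others. C2 and D12 were thus high among rats of low groups and M6 low in a high group. Not every marker followed its sum. Cd4 was -3.90 in M7 and -3.74 in M8, against -3.78 to -3.48 in C1, C3 and C4. Of the macrophage markers, Csf1r was -1.87 in M7 and -1.52 in C3, and Cd163 was -0.54 in D12 and -0.31 in C1. Groups are those of the labels, and whether samples had been exchanged or lymphoid tissue taken unevenly was not tested. For this reason values with and without these rats are given beside the results that rest on them. A single slide carried Groups C and M, in different rows, and the other carried Group D. The slide cannot be told apart from Group D, nor the row from the difference of Group M and Group C.

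The sequences below are those of 4 probes on which the values turn, and of 3 promoters that held a searched motif. The probe sequences, 60 bases each, are those of the array files. They measure Dusp14, a small phosphatase, Mapk9 (JNK2), Map4k1 (HPK1, a kinase of blood cells) and Dusp2 (PAC-1, a phosphatase of activated lymphocytes). In the rn4 build of the files the Dusp14 probe lies at chr10:72336549-72336608 on the minus strand, the Mapk9 probe at chr10:35378241-35378300, the Map4k1 probe at chr1:84111385-84112618 and the Dusp2 probe at chr3:114839775-114839834, the last 3 on the plus strand. The interval of the Map4k1 probe is longer than its 60 bases, so that it is split over the genome. The annotation used here gives no exon or UTR for these positions.
Dusp14: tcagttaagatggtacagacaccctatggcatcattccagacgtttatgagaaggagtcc
Mapk9: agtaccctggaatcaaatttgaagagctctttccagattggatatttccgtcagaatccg
Map4k1: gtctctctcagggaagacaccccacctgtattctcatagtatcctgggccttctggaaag
Dusp2: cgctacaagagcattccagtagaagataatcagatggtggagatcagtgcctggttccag

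Promoters of RefSeq (GRCr8 build, 250 bases before to 50 after each start) were at hand for 55 members, among them 15 genes past an unadjusted p of 0.01 or the criterion of the methods below. They were searched on both strands for the cyclic AMP response element (CRE) TGACGTCA, its core TGACG, which every CRE contains, the AP-1 site TGANTCA and the CArG box of serum response factor. A CRE was found in 5 of the 55 member promoters (9.09%) against 1.83% of all 33469 promoters, and these belonged to Dusp1, Dusp11, Map3k13, Mapk10 and Mapk1ip1. The core was found in 20 (36.4% against 21.2%), the AP-1 site in 2 (3.64% against 7.33%) and the CArG box in 2 (3.64% against 1.64%). Among the 15 genes, 2 held a CRE, 5 the core, 1 an AP-1 site and 0 a CArG box. The bases before the start are printed for Map3k13 (chr11:92739664-92739913, minus strand), Mapk1ip1 (chr1:203095437-203095686, minus strand) and Map3k8 (chr17:58077925-58078174, plus strand), with the CRE or AP-1 site in capitals. A match is a string of letters and was not tested for function.
Map3k13: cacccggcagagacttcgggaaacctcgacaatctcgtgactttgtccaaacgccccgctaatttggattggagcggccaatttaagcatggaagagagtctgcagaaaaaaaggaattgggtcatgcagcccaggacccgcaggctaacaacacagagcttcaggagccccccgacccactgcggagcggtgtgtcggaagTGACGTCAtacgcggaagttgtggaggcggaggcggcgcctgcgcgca
Mapk1ip1: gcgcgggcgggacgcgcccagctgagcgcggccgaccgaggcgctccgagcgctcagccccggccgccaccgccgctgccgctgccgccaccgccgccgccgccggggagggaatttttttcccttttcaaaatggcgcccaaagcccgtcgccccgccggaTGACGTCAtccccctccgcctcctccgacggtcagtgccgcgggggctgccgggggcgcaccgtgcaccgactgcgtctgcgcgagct
Map3k8: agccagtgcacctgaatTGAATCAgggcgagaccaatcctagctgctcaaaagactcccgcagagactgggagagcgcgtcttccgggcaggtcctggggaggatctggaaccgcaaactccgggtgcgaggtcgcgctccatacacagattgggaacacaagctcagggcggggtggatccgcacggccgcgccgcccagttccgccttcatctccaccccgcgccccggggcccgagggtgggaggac

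The first comparison, Group M vs Group C, asks what maternal separation left in the adult colon. The tiers of the cascade differed in their direction. All 5 MAP4K genes had higher means in Group M, with a median difference of 0.54, and the 10 classical Dusp genes had a median of 0.55, with 6 higher and 4 lower. The 11 MAPK genes lay lower, with a median of -0.28 and 8 of 11 lower, as did the adaptors and scaffolds, with a median of -0.29 and 6 of 8 lower (-0.23 and 5 of 7 without Mapk8ip2). MAP3K and MAP2K genes had medians of 0.13 and 0.12 and other Dusp genes of 0.04 (0.07 without the 3 genes never above background), against -0.01 over all 30367 probes. Without M6 the median of the MAP4K genes was 0.82, and with a background correction by normexp that of the classical Dusp genes was 0.16. These medians are descriptions with no test. Of the MAP4K genes, Map4k1, Map4k2 and Map4k4 were highest in the same 5 rats, control C2 among them, as described further below.

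**Figure D1:**
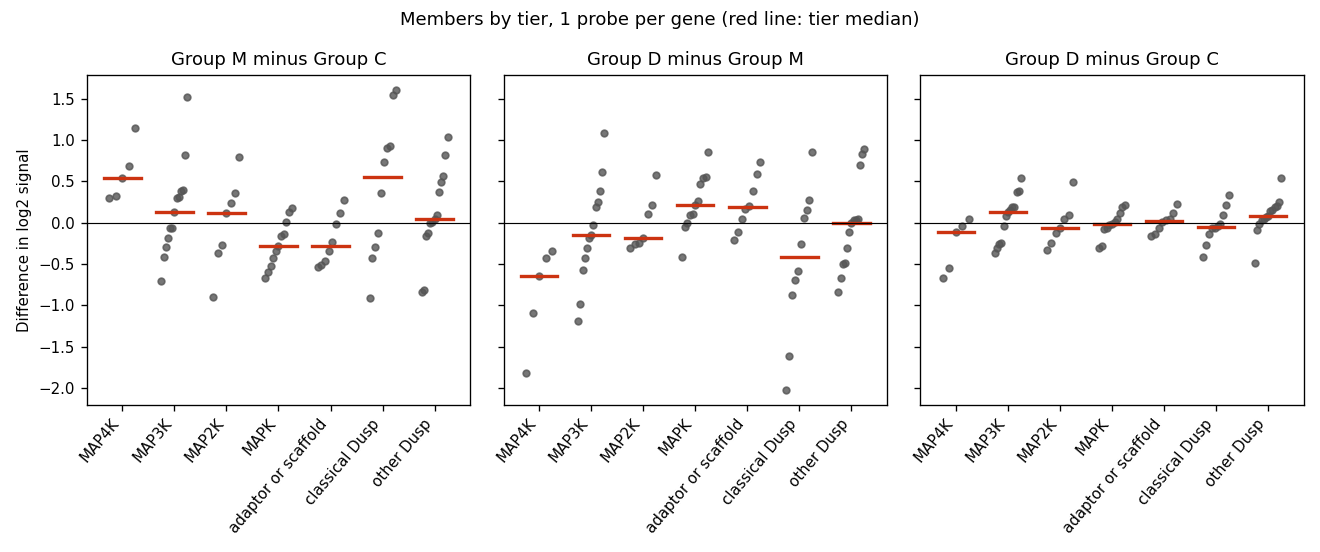
Differences in log2 signal (vertical axis) between group means for the 67 member genes, 1 probe per gene, by tier (horizontal axis), in Group M minus Group C (left), Group D minus Group M (middle) and Group D minus Group C (right) on 11 arrays. Points are genes and red lines tier medians. The MAP4K median was 0.54, -0.64 and -0.11 in the 3 panels, and that of the MAPK genes -0.28, 0.22 and -0.02.

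By limma with adjustment over all probes, 0 of the 75 member probes passed an adjusted p of 0.05 in Group M vs Group C, where 0.204% of all probes did. At an unadjusted p of 0.05 there were 36 members (48%), against 22.7% of all probes. At an unadjusted p of 0.01 there were 14 member probes (18.7%), against 8.04% of all probes. Of these 6 were higher and 8 lower, where 3.71% and 4.33% of all probes were. With all 12 arrays there were 9, against 4.98%. When dim probes were left out, the shares were 24.6% of 65 members and 11.6% of all. In 20 member probes (26.7%) the 4 rats of Group M lay all above or all below the 4 of Group C, against 9.22% of all probes. The criterion of the study's methods, a 2-fold change with p of at most 0.05 in analysis of variance and Tukey's test, was met by 3 members (4% against 2.31% of all probes). These were Map3k6, Dusp10 and Dusp14, all with higher means in Group M (1.37% of all probes). The count at the adjusted threshold depended on 1 rat and on the weighting of the arrays. Without M6, 22 members (29.3%) passed the adjusted threshold, 12 higher and 10 lower, against 16.2% of all probes (7.58% higher and 8.6% lower), and without any other single rat 0 did. With array quality weights, which were lowest for M6 (0.365) and highest for M8 (4.71), 38 members (50.7%) passed it, against 28.3% of all probes, and 36 (48% against 25.6%) an unadjusted p of 0.01.

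Map3k6 (ASK2, a stress-responsive partner of ASK1) had the largest difference of the MAP3K genes in Group M vs Group C. Its signals were -0.35, 0.46, -0.43 and -0.89 in C1 to C4 and 0.96, 0.54, 1.92 and 1.44 in M5 to M8. Every rat of Group M lay above every rat of Group C, although C2 and M6 were only a little apart. The difference of 1.52 ± 0.34 (SE), a 2.86-fold higher mean, had an adjusted p of 0.0909, and of 0.0139 without M6. In Group D the signals were 0.39, -0.10 and 0.43 in D9 to D11 and 1.58 in D12, so that D12 lay within the range of Group M.

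Dusp10 (MKP5), which acts on JNK and p38, was near background in most rats. It had 2 spots per array, and counted as above background where both were. That was the case in no rat of Group C (-6.46, -6.72, -6.93 and -8.02), although 1 of the 2 spots was in C1 and C2, while it was above it in M5 (-5.22), M7 (-4.80) and M8 (-5.37) but not in M6 (-6.53). With signals of Group C set no lower than the array's lowest signal above background, the mean was 2.25-fold higher in Group M. This is no lower limit, as M6 was at background too. The fitted difference was 1.55 ± 0.43, with an adjusted p of 0.110. Under normexp, which compresses dim signals, the difference was 0.40. Dusp10 was at background in D9 (-6.60), D10 (-7.05) and D11 (-7.63) and above it in D12 (-5.51).

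Dusp14, which dampens T cell receptor and cytokine signals, is the third member past that criterion. C1 to C4 gave -2.67, -2.76, -2.96 and -2.80, and M5 to M8 gave -1.84, -2.34, -1.36 and -1.49. The groups did not overlap, and C2 was no higher than its group. The difference was 1.04 ± 0.24, 2.05-fold, with an adjusted p of 0.0955. Group D was spread more widely, with -2.04, -2.85 and -2.89 in D9 to D11 and -1.37 in D12.

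Among the other kinases with higher signals in Group M was Map4k5, a kinase upstream of JNK. It gave -1.88, -1.68, -1.90 and -1.89 in C1 to C4 and -1.36, -1.53, -0.70 and -0.99 in M5 to M8. The difference of 0.69 ± 0.16 was free of overlap and had an adjusted p of 0.0967. Map2k3, an activator of p38, was higher by 0.80 ± 0.24 (adjusted p = 0.119), from a mean of 2.00 ± 0.14 (SD, n = 4) in Group C to 2.80 ± 0.56 (SD, n = 4) in Group M. Map2k6, the other main activator of p38, went the other way, with -2.43 to -2.22 in Group C and -2.58 in M5, -4.21 in M7 and -3.55 in M8, with M6 nearest to the controls (difference -0.90 ± 0.33, adjusted p = 0.150). Thus the pair of p38 activators had opposite differences, each without overlap of the groups. Map3k7 (TAK1), which links cytokine and Toll-like receptors to JNK, p38 and NF-kB, was higher by 0.39 ± 0.12 (adjusted p = 0.124). Map3k1 (MEKK1), which activates the JNK branch, differed by 0.30 ± 0.11 (adjusted p = 0.153) and Map3k14 by 0.31 ± 0.10 (adjusted p = 0.130). Map4k4, a kinase upstream of JNK, differed by 0.32 ± 0.21 (adjusted p = 0.385) and on its second probe by 0.44 ± 0.26 (adjusted p = 0.348).

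Mapk9, Mapk13 and Mapk14, kinases of the JNK and p38 branches, had lower signals in Group M. Mapk9 was -1.74, -1.93, -1.68 and -1.84 in C1 to C4 and -2.37, -2.03, -2.52 and -2.34 in M5 to M8, again without overlap. Its difference was -0.52 ± 0.12 with an adjusted p of 0.0923. Mapk13 (p38 delta), a kinase of epithelia, was lower by a difference of -0.60 ± 0.17 (adjusted p = 0.112), and M6 (-2.11) lay just above C2 (-2.14). Mapk14 (p38 alpha) differed by -0.28 ± 0.11 (adjusted p = 0.158), with 3.29 to 3.45 in Group C and 2.99 to 3.20 in Group M.

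Mapk3 (ERK1) had a difference of -0.13 in Group M vs Group C, with a 95% interval of -0.40 to 0.15. Its log2 signals were 5.68 to 6.16 in Group C and 5.65 to 6.00 in Group M, which overlapped. Among its activators, Map2k1 (MEK1) had a difference of 0.36 ± 0.15 (adjusted p = 0.197) and Map2k2 (MEK2) of -0.27 ± 0.15 (adjusted p = 0.299), and Map2k4, which acts on JNK, one of 0.12 ± 0.14. The second probe of Map2k4 differed by 0.33 ± 0.14 (adjusted p = 0.195), without overlap of the groups. Map2k5, the activator of ERK5, was lower by -0.36 ± 0.11 (adjusted p = 0.119), with -3.10 to -2.99 in Group C and -3.58 to -3.25 in Group M.

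Map3k10 and Map3k11 are mixed lineage kinases that feed the JNK branch. Map3k10 was -5.55, -5.93, -5.59 and -5.56 in C1 to C4 and -6.53, -6.50, -6.07 and -6.33 in M5 to M8, where it was above background in 3 of 4 rats. All 4 rats of Group M lay below the controls, M7 nearest to them. The difference for Map3k10 was -0.70 ± 0.18 (adjusted p = 0.101) and -0.28 under normexp, and that of Map3k11 was -0.42 ± 0.13 (adjusted p = 0.125).

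Of the phosphatases with lower signals, Dusp8, which acts on JNK and p38, gave 0.28, -0.42, 0.05 and -0.26 in C1 to C4 and -1.29, -0.29, -1.07 and -1.33 in M5 to M8. Dusp26, best known from neural tissue, gave -0.69, -1.16, -0.99 and -1.32 in Group C and -2.06, -1.27, -1.99 and -2.20 in Group M. In both genes 3 rats of Group M lay below all controls while M6 lay among them. The differences of Dusp8 and Dusp26 were -0.91 ± 0.24 (adjusted p = 0.106) and -0.84 ± 0.21 (adjusted p = 0.0988). Without M6 they were -1.14 (adjusted p = 0.0107) and -1.05 (adjusted p = 0.00913). Dusp10 and Dusp8 act on the same kinases, and their differences were of opposite sign.

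Of the phosphatases that act on ERK, Dusp4, Dusp6 and Dusp7 had higher means in Group M and Dusp5 a lower one. Dusp9, given further below, had a higher mean too. Dusp6, the cytoplasmic phosphatase of ERK, was 0.67 to 0.93 in Group C and 1.05 to 2.51 in Group M (difference 0.91 ± 0.29, adjusted p = 0.130). Dusp5, its nuclear counterpart, differed by -0.43 ± 0.19 (adjusted p = 0.210). Dusp7 was -7.01 to -6.16 in Group C, where 2 of 4 rats were above background, and -6.17 to -4.83 in Group M. Its difference was 0.93 ± 0.30 (adjusted p = 0.128). Dusp1 (MKP-1), an immediate early gene, differed by -0.12 with an interval of -0.58 to 0.34. Dusp4 differed by 0.36 ± 0.19 and was above background in 1 of 4 rats of Group C and 3 of 4 of Group M. Dusp16, a JNK phosphatase, differed by -0.29 ± 0.16 (adjusted p = 0.318) and on its second probe by 0 ± 0.22.

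**Figure D2:**
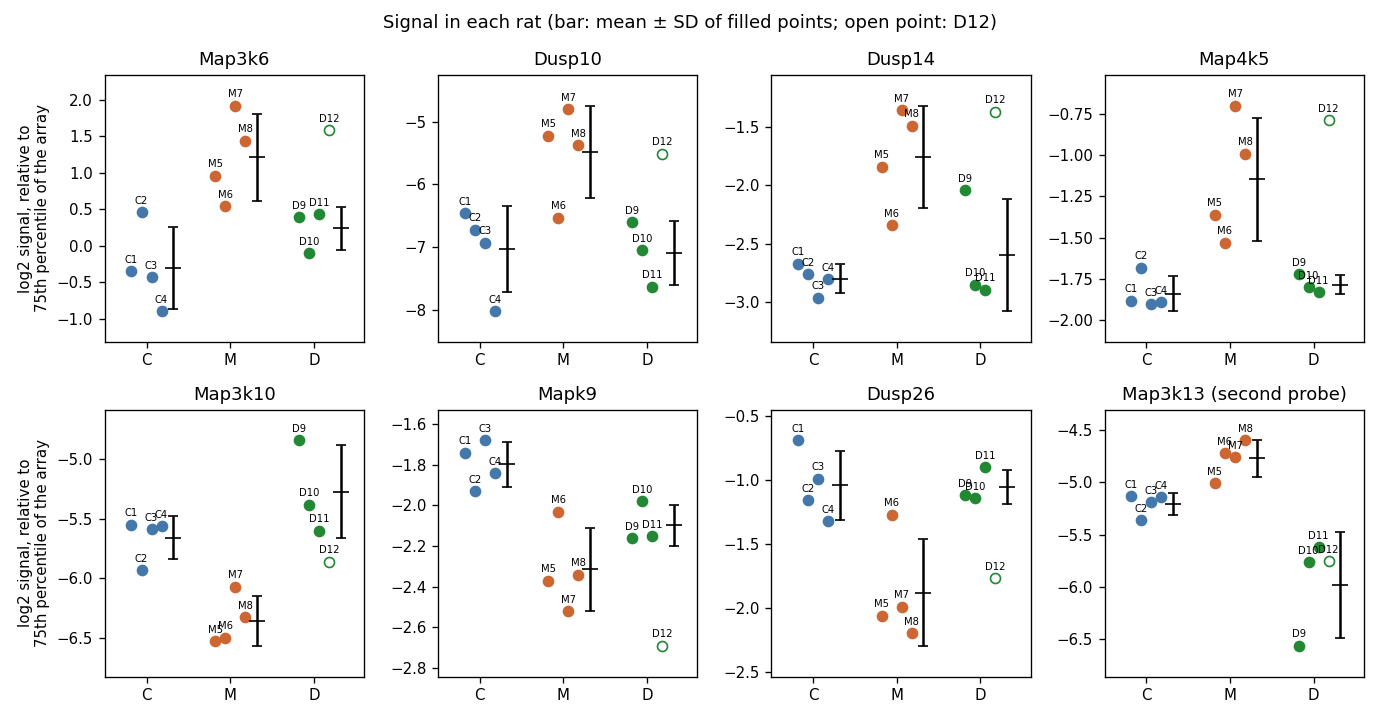
Signals of 8 member probes in each rat, as log2 over the array's 75th percentile (vertical axes), for Groups C, M and D (horizontal axes). Filled points are the 11 arrays of the fit, the open point is D12, and bars give the mean and SD of the filled points. In Map3k6 the means were -0.30 in Group C, 1.22 in Group M and 0.24 in Group D, and D12 lay at 1.58.

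Among adaptors, the second probe of Map3k7ip1 (TAB1, which activates TAK1) was lower in Group M by -0.64 ± 0.17 (adjusted p = 0.105), while its brighter probe was lower by -0.34 ± 0.13 (adjusted p = 0.163). Mapk1ip1 was 0.22 to 0.47 in Group C and -0.13, 0.12, -0.55 and -0.29 in M5 to M8, without overlap (difference -0.54 ± 0.16, adjusted p = 0.113). Mapk8ip1 (JIP1), a scaffold of the JNK branch, differed by -0.46 ± 0.19 (adjusted p = 0.183). Map3k7ip2 (TAB2) gave 1.26 to 1.60 and 1.51 to 1.68 in the same groups, which overlapped.

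The second comparison, Group D vs Group M, asks how separated rats with VSL#3 differed from separated rats with placebo. It shares Group M with the first comparison, so that the signs of both are tied to the same 4 rats. The MAP4K genes had a median difference of -0.64, with 5 of 5 lower, the classical Dusp genes of -0.42, and the MAPK genes of 0.22, with 9 of 11 higher, against 0.01 over all probes. With D12 included the medians were -0.39, -0.24 and 0.07. By limma 0 members passed an adjusted p of 0.05 (0.171% of all probes). At an unadjusted p of 0.05 there were 29 members (38.7%), against 21.6% of all. At an unadjusted p of 0.01 there were 11 (14.7%), against 7.72% of all, and 7 with all 12 arrays against 3.68%. Of the 11, 4 were higher and 7 lower, where 4.02% and 3.7% of all probes were. When dim probes were left out, 3 of 65 members passed the adjusted threshold (4.62% against 1.51% of all). The groups did not overlap in 16 member probes (21.3% against 15.8% of all), and in 5 with D12 (6.67% against 5%). Without M6, 19 members passed the adjusted threshold (25.3% against 14.8%), 8 higher and 11 lower, where 7.19% and 7.64% of all probes were. With array quality weights 29 did (38.7% against 22.7%), and 28 (37.3% against 21.6%) passed an unadjusted p of 0.01.

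The criterion of the methods was met by 4 member genes in Group D vs Group M (5.33% against 2.66% of all probes), Map3k10 with a higher mean (1.09% of all probes) and Map3k8, Dusp10 and the second probe of Map3k13 with lower ones (1.57%). With all 12 arrays it was met by the second probe of Map3k13 alone (1.33% against 0.948%). Map3k10 was -4.84, -5.38 and -5.60 in D9 to D11 and -5.86 in D12, all above the 4 rats of Group M. Its difference was 1.09 ± 0.19, 2.12-fold, with an adjusted p of 0.0657, and 0.94 with D12 (adjusted p = 0.150). Under normexp it was 0.43. Map3k11 was higher too, with -2.81, -2.69, -2.93 and -2.80 in D9 to D12 and -3.56 to -3.25 in Group M. The difference of 0.61 ± 0.14 (adjusted p = 0.0854) was 0.61 with D12 as well. In Map3k11 D12 lay among the other rats of Group D, while in Map3k10 it lay between D11 and M7, the highest rat of Group M (-6.07).

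Map3k13 (LZK) was measured by a pair of probes, both on chromosome 11 on the minus strand, at positions 81326461 to 81326520 and 81325076 to 81325135. On the second, dimmer probe the signals were -5.01, -4.72, -4.76 and -4.60 in M5 to M8, -6.56, -5.76 and -5.62 in D9 to D11 and -5.75 in D12. Group D was thus lower than Group M in every rat, by a difference of -1.21 ± 0.20 (adjusted p = 0.0591), or of -0.40 under normexp. On the brighter probe the difference was -0.43, with -1.47 to -1.04 in Group M and -2.05, -1.38, -1.51 and -2.03 in D9 to D12, which overlapped. The probes agreed in direction and not in size.

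Map3k8 (Tpl2), which relays Toll-like receptor and TNF signals to ERK, and Map3k14 (NIK), the kinase of the non-canonical NF-kB pathway, are MAP3K genes of immune signalling. Map3k8 was -1.42, -2.01, -0.93 and -1.15 in M5 to M8 and -2.72, -2.56 and -2.44 in D9 to D11, but -0.23 in D12, the highest signal of all 12 rats. The difference of -1.19 ± 0.32 (adjusted p = 0.101) was -0.61 with D12 (adjusted p = 0.654). Map3k14 was -1.94, -1.94, -1.74 and -1.90 in Group M and -2.54, -2.48 and -2.33 in D9 to D11, and again the highest value, -1.37, was that of D12. Its difference of -0.57 ± 0.11 (adjusted p = 0.0710) was -0.30 with D12 (adjusted p = 0.603). Both differences were smaller when D12 was kept.

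The same held for Map4k5, whose difference was -0.64 ± 0.18 without D12 (adjusted p = 0.107) and -0.39 with it (adjusted p = 0.541), and for Dusp14, with -0.84 ± 0.26 (adjusted p = 0.1247) and -0.53 (adjusted p = 0.535). Dusp10 was lower in D9 to D11, 2.19-fold with their signals set no lower than the array's lowest signal above background. This is no lower limit, as M6 was at background too. The fitted difference of Dusp10 was -1.61 ± 0.46 (adjusted p = 0.111). It became -1.22 with D12 (adjusted p = 0.372) and -0.39 under normexp. Map3k6 differed by -0.98 ± 0.36 (adjusted p = 0.164), by -0.64 with D12 (adjusted p = 0.547) and by -1.20 without M6 (adjusted p = 0.0476). Dusp8 and Dusp26 were higher than in Group M by 0.86 ± 0.26 (adjusted p = 0.1235) and 0.83 ± 0.22 (adjusted p = 0.101). With D12 these differences were 0.62 (adjusted p = 0.440) and 0.65 (adjusted p = 0.326). D12 lay with M5, M7 and M8 in both genes, at -1.13 for Dusp8 and -1.77 for Dusp26. Mapk9 differed by 0.22 ± 0.13 (adjusted p = 0.349) and by 0.07 with D12, at -2.16, -1.98 and -2.15 in D9 to D11 and the lowest signal of all rats, -2.69, in D12.

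The remaining main kinases and phosphatases had smaller differences or larger errors in Group D vs Group M. Mapk3 differed by 0.11, with an interval of -0.19 to 0.41. Among the MAP2K genes the differences ran from -0.31 ± 0.26 for Map2k3 to 0.58 ± 0.35 for Map2k6, with adjusted p of 0.543 and 0.373. The second probe of Map2k4 lay outside that range, at -0.44 ± 0.15 (adjusted p = 0.147). Map3k7 differed by -0.31 ± 0.13 (adjusted p = 0.215), Map3k1 by -0.15 ± 0.12 and Map4k4 by -0.43 ± 0.22 (adjusted p = 0.292). On the second probe of Map4k4 the difference was -0.77 ± 0.29 (adjusted p = 0.164), without overlap of the groups, and -0.59 with D12. Of the phosphatases, Dusp6 differed by -0.69 ± 0.32 (adjusted p = 0.240), Dusp16 by 0.28 ± 0.17, Dusp4 by -0.26 ± 0.20, Dusp5 by 0.16 ± 0.20 and Dusp1 by 0.06 ± 0.22. Mapk14 differed by 0.26 ± 0.11 (adjusted p = 0.228). With D12 several differences were nearer to 0, with -0.16 for Map2k3, 0.36 for Map2k6, -0.28 for Map4k4, 0.13 for Dusp16 and -0.07 for Dusp4.

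Dusp18, an atypical phosphatase, had nearly equal means in Groups C and M (difference 0.01 ± 0.14). It was -2.24 to -1.70 in Group C, -2.07 to -1.91 in Group M and -2.79, -2.33 and -2.31 in D9 to D11, with -2.51 in D12. The 4 rats of Group D lay below all 8 others. Its difference was -0.50 ± 0.15 to Group M (adjusted p = 0.1245) and -0.49 ± 0.15 to Group C (adjusted p = 0.696), and since Group D had a slide of its own, slide and group cannot be told apart here.

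**Figure D3:**
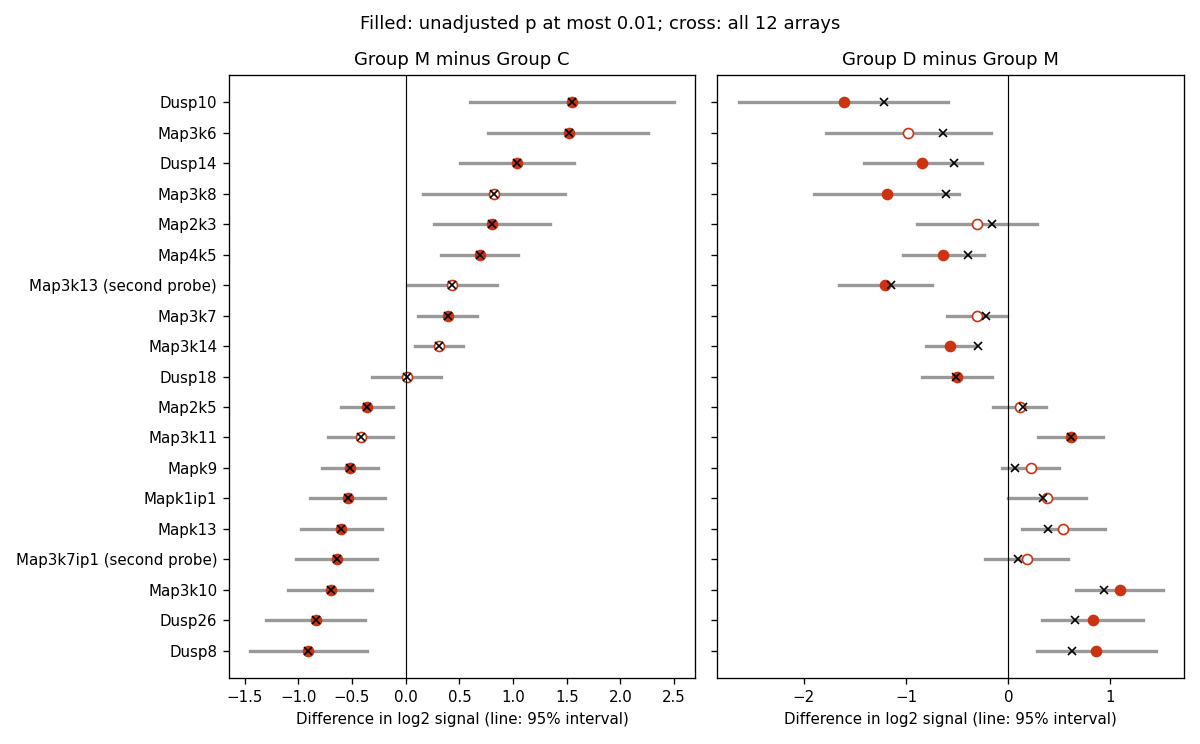
Differences in log2 signal (horizontal axes) in Group M minus Group C (left) and Group D minus Group M (right) for the 19 member probes (vertical axis) with an unadjusted p of at most 0.01 in either comparison, with 95% intervals on 11 arrays. Filled circles mark that p in the comparison shown and crosses the difference with all 12 arrays. Crosses lie nearer to 0 than circles for Map3k8 (-0.61 and -1.19) and almost on them for Map3k11 (0.61 in both).

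The third comparison, Group D vs Group C, sets separated rats with VSL#3 against unseparated ones. All tier medians lay between -0.11 (MAP4K) and 0.13 (MAP3K), against -0.01 over all probes. By limma 0 members passed an adjusted p of 0.05 (0.00659% of all probes), with 7 at an unadjusted p of 0.05 (9.33% against 5.97%). At an unadjusted p of 0.01 there were 3 (4% against 1.42%), all lower (0.741% of all probes), namely Dusp18 and the second probes of Map3k13 and Map3k3. The second probe of Map3k13 gave -5.36 to -5.13 in Group C and was lower in Group D by -0.77 ± 0.20 (adjusted p = 0.579). The second probe of Map3k3 (MEKK3) differed by -0.41 ± 0.12 (adjusted p = 0.681), while its brighter probe gave -0.96 to -0.48 in Group C and -0.69 to -0.47 in D9 to D11. The criterion of the methods was met by 0 members (0.369% of all probes). Groups D and C did not overlap in 11 member probes (14.7% against 7.56% of all). Map3k6 had its mean in Group D between both other groups, with means of -0.30 in Group C, 0.24 in Group D and 1.22 in Group M. Map2k3 was above all controls in D9 (2.75), D10 (2.32), D11 (2.39) and D12 (3.09), with a difference of 0.49 ± 0.26 (adjusted p = 0.879). Mapk9 was below all controls (-1.93 to -1.68) in D9 (-2.16), D10 (-1.98), D11 (-2.15) and D12 (-2.69). Its difference was -0.30 ± 0.13 (adjusted p = 0.810), and -0.45 with D12.

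Set against the mean of Group C rat by rat, the members showed which animals carried these differences. At least 2-fold away from that mean were 8 of 67 genes in M5 (11.9%), 14 in M7 (20.9%), 11 in M8 (16.4%) and 13 in D12 (19.4%). In M6 there was 1 (1.49%), as in D9, and 0 in D10 and D11. Of the controls, which are themselves part of that mean, C2 had 5 (7.46%), C3 and C4 had 1 each and C1 had 0. Against the mean of the other controls C2 had 7 (10.4%, with 5.51% of all probes), near the share of M5. By that measure C4 had 3 and C1 and C3 had 1 each. Over all probes the shares were 8.67% in M5, 14.4% in M7, 8.72% in M8 and 12.8% in D12, 4.09% in M6 and 2.94% in C2. They were 3.83% in D9, 2.68% in D10, 3.14% in D11, 1.26% in C1, 1.59% in C3 and 1.92% in C4. Thus Group M was made of 3 rats far from the controls and 1 near them, and Group D of 3 near and 1 far.

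**Figure D4:**
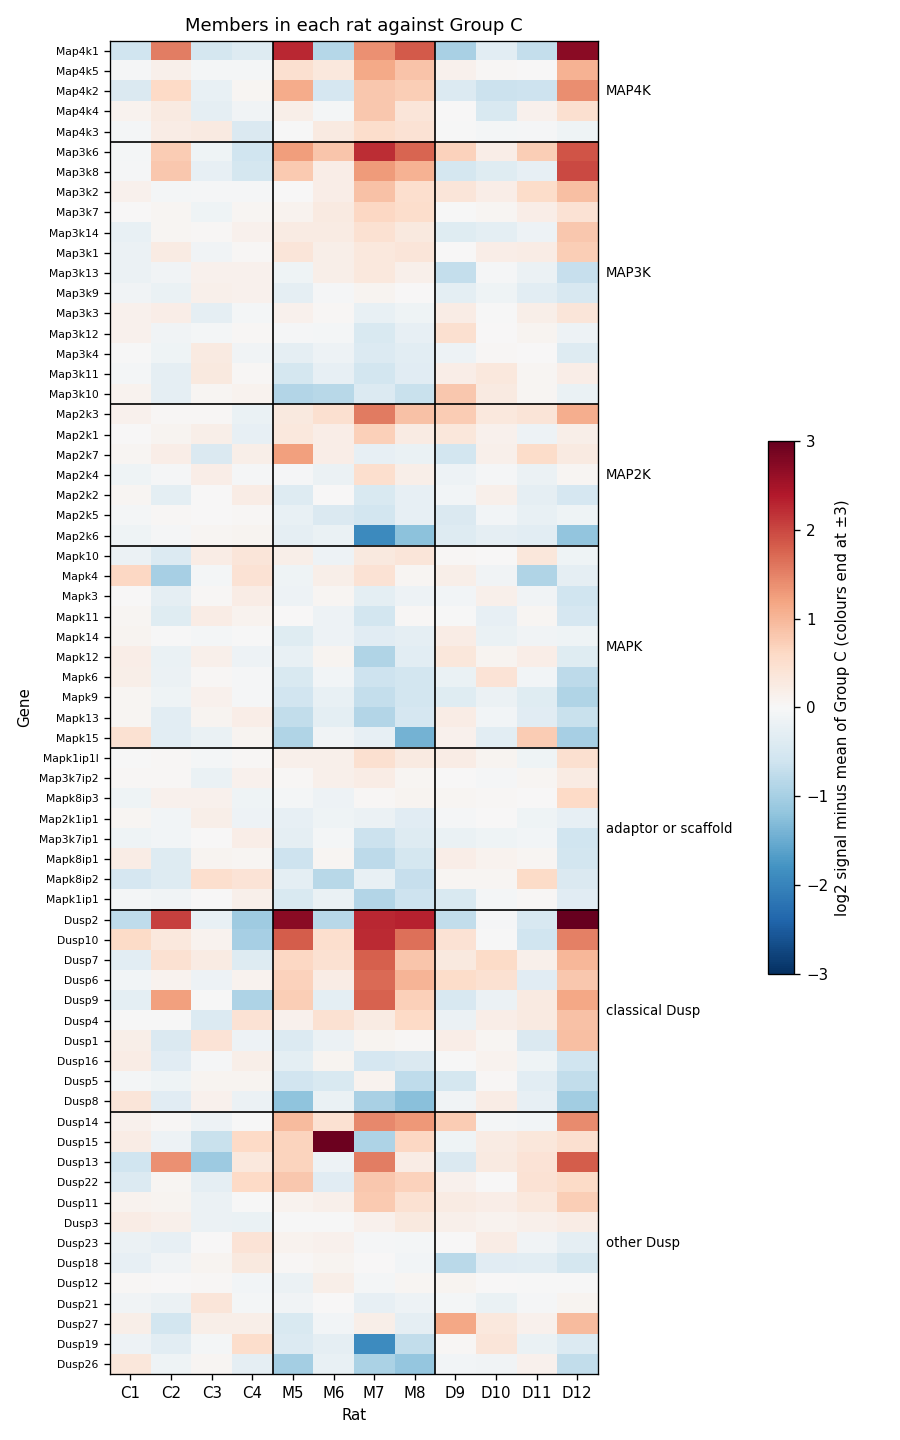
Log2 signal minus the mean of Group C (colour) for the member genes (rows, by tier and then by the difference of Group M) in each of the 12 rats (columns). Warm colours mark signals above Group C. In M5, M7, M8 and D12 11.9% to 20.9% of genes were at least 2-fold away from the mean of Group C, and in M6 1.49%.

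The 5 rats with the highest T cell sums, C2, M5, M7, M8 and D12, were also the 5 highest of 12 in 7 of the 67 member genes (10.4%), as in 6.05% of all probes. These were Map4k1, Map4k2, Map4k4, Map3k1, Map3k8, Dusp2 and Dusp9, looked for after the values were seen. Map4k1 was -4.15, -4.09 and -3.95 in C1, C3 and C4 and -2.03 in C2, and in Group M it was -1.29, -2.19 and -1.72 in M5, M7 and M8 and -4.42 in M6. In D9 to D11 it was -4.52 to -3.88 and in D12 -0.85. Dusp2 was high in the same rats, with -6.57 to -5.74 in C1, C3 and C4, -3.46 in C2, -3.26 to -2.80 in M5, M7 and M8, -6.35 in M6, -6.24 to -5.55 in D9 to D11 and -2.27 in D12. Dusp9, a phosphatase of ERK, was -4.94 to -3.90 in the 5 rats and -6.60 to -5.40 in the other 7. Dusp2 was above background on 9 of 12 arrays and Dusp9 on 10. Map3k1 and Map4k4 had the same 5 rats on top by smaller steps, with -1.16 to -0.67 against -1.59 to -1.18 for Map3k1 and 0.08 to 0.70 against -0.56 to 0.02 for Map4k4. The differences in Group M vs Group C, 1.15 ± 0.68 for Map4k1 (adjusted p = 0.342), 1.61 ± 0.84 for Dusp2 (adjusted p = 0.286), 0.54 ± 0.34 for Map4k2 (adjusted p = 0.373), 0.82 ± 0.30 for Map3k8 (adjusted p = 0.150) and 0.74 ± 0.49 for Dusp9 (adjusted p = 0.410), were 1.82, 2.42, 0.89, 1.03 and 1.08 without M6. Without C2 they were 1.66, 2.29, 0.74, 1.09 and 1.15. The part of lymphoid tissue in these values was not tested.

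In Dusp14 (-2.76) and Dusp10 (-6.72) C2 lay within the range of the other 3 controls, and in Map4k5 it was higher than they were (-1.68) but below every rat of Group M. In Map3k6 it was the highest control (0.46), just below M6. Without C2 the differences in Group M vs Group C were 1.05 for Dusp14, 1.66 for Dusp10, 0.74 for Map4k5 and 1.77 for Map3k6.

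**Figure D5:**
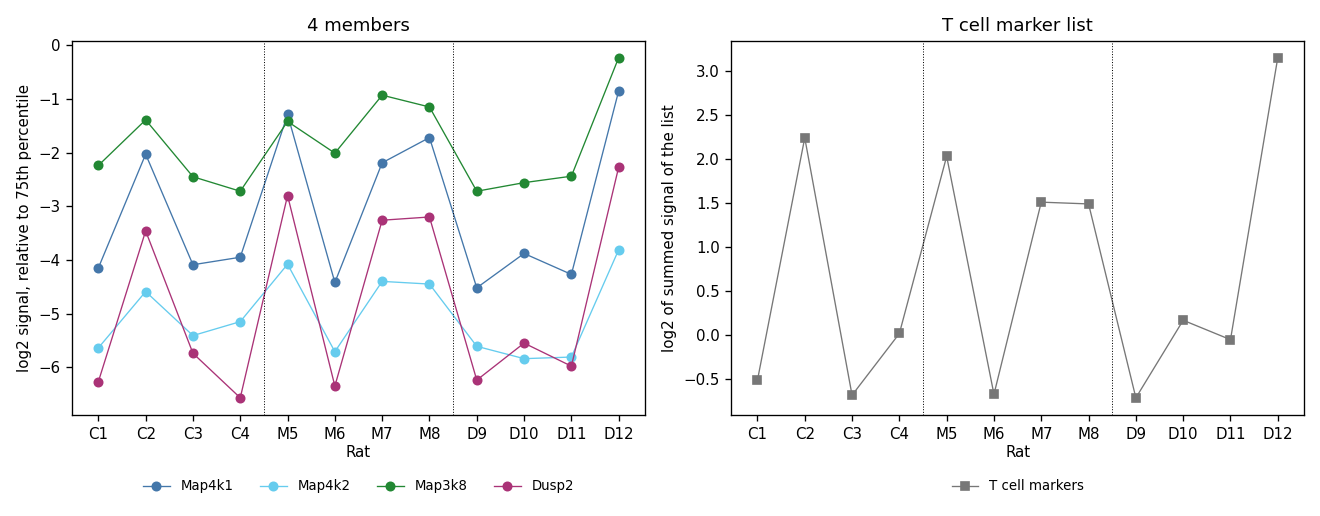
Log2 signals of Map4k1, Map4k2, Map3k8 and Dusp2 relative to the 75th percentile of the array (left) and log2 of the summed signal of 5 T cell markers (right) in each rat (horizontal axes), with dotted lines between Groups C, M and D. C2, M5, M7, M8 and D12 are high in both panels, and M6 is low, at -4.42 for Map4k1 and -0.67 for the T cell sum.

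The other genes of the pathway, 47 genes by 1 probe each, were counted beside the members. In Group M vs Group C 8 were higher (17%) and 3 lower (6.38%) at an unadjusted p of 0.01, against 3.71% and 4.33% of all probes, and 0 passed the adjusted threshold. In Group D vs Group M the counts were 3 (6.38%) and 5 (10.6%), against 4.02% and 3.7%, and in Group D vs Group C 2 (4.26%) and 0, against 0.675% and 0.741%. Of the 9 kinases downstream of the MAP kinases, 2 were higher and 3 lower in Group M. The lower ones were Mapkapk3, a substrate kinase of p38 (-0.66 ± 0.15, adjusted p = 0.0932), Rps6ka5 (MSK1, -0.58 ± 0.16, adjusted p = 0.110) and Mknk1, which phosphorylates a translation factor (-0.38 ± 0.10, adjusted p = 0.105). Rps6ka3 (RSK2) was higher by 0.41 ± 0.11 (adjusted p = 0.106). Of the 15 target and early genes, Fosl1, an AP-1 subunit, and Myc met the criterion of the methods. Fosl1 was -7.35, -1.99, -6.73 and -7.24 in C1 to C4 and -0.80, -1.26, 0.94 and -0.02 in M5 to M8, with an adjusted p of 0.0894. It was above background in all 4 rats of Group M but in C2 alone of Group C, so that no size of the difference is given. Myc differed by 1.38 ± 0.29 (adjusted p = 0.0895). In Myc C2 (-0.40) was the highest control, M6 (-0.20) the lowest rat of Group M and D12 (1.54) the highest of all rats. Of the 12 feedback genes outside the Dusp family, 3 were higher, among them Gadd45g, a stress gene that binds a MAP3K (1.34 ± 0.31, adjusted p = 0.0961), and Spry1, an inhibitor of receptor signalling to ERK (0.62 ± 0.18, adjusted p = 0.113). In Gadd45g C2 (0.32) was the highest control, M6 (0.47) the lowest rat of Group M and D12 (1.88) the highest of all rats. In Group D vs Group M, Myc and Gadd45g differed by -1.11 and -1.19, or by -0.61 and -0.70 with D12. The immediate early gene Fos overlapped between all groups, at -1.83 to -0.85 in Group C, -1.22 to 0.28 in Group M and -1.29 to 0.31 in Group D.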

How the data were processed

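RNA of the colon of 12 rats was hybridized to 1-colour (Cy3) Agilent 60-mer arrays, 1 array per rat. Per the file headers, Feature Extraction 10.5.1.1 had subtracted the background of each deposited intensity, on a linear scale with no normalization between arrays. The same files hold mean and background intensities, as well as software scores that mark outlier spots and spots above background. The authors' matrix holds log2 values on 1 shared distribution (quantile normalized), and its columns matched their own arrays. From each log2 intensity that of the array's own 75th percentile was subtracted. Control and outlier spots were dropped, and a probe's spots averaged. No spot was saturated. The number of arrays limits the precision.

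The comparisons used lmFit and eBayes of limma 3.58.1 (R 4.3.3) on 3 groups and 11 arrays, with Benjamini-Hochberg adjustment over 30367 probes. Errors of differences are standard errors, intervals 95%. A gene was measured by its brightest probe, and second probes are named for Map3k13, Map3k3, Map3k7ip1, Map4k4, Map2k4 and Dusp16. For a gene at background in all rats of a group, the fold sets signals of that group no lower than the array's lowest signal above background. It is no lower limit where a rat of the other group was at background too. Named are all members at a p of at most 0.01 or past the criterion of the methods, and the main kinases and phosphatases of each branch whatever they did. Also named are members chosen after their values were seen (Map4k1, Map4k2, Dusp7, Dusp9, Mapk8ip1, Map3k7ip2, Map3k3). Mapk7, Mapk8 and Map3k5 were not measured under these names. Members and lists were chosen with earlier results of these data known. Nothing in the labels says that rats came from different litters, so p values measure the spread between these rats. Results for 1 kinase and 1 marker are not reported here. The procedure was tested on simulated data. Alternatives are given in the closing section. Figures were drawn with Python 3.11.15 and matplotlib 3.10.9.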

Additional observations from a re-analysis of the deposited data

Results flagged for a closer look

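In the 4 rats of each group, signals of 35 named member probes were searched for a rat far from the other 3. This found 7, where chance gives about 1 in 20 groups, or 5.2. Of these, 3 were D12, with Map3k8 at -0.23 (others -2.72 to -2.44), Map4k5 at -0.79 (others -1.83 to -1.72) and Map2k6 at -3.50 (others -2.70 to -2.57). C2 was far from the other controls in Map4k5, at -1.68 (others -1.90 to -1.88), and in Map3k10, at -5.93 (others -5.59 to -5.55). M6 was far from its group in Dusp2, at -6.35 (others -3.26 to -2.80). The remaining one was D9 in the second probe of Map3k13, at -6.56 (others -5.76 to -5.62).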

How the results depend on the processing

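No result changed its sign while called. The counts of members at an unadjusted p of 0.01, which were 14 in Group M vs Group C, 11 in Group D vs Group M and 3 in Group D vs Group C, moved the most. With all 12 arrays the first 2 were 9 and 7. With array quality weights they were 36 and 28 (25.6% and 21.6% of all probes), and at the adjusted threshold 38 and 29 in place of 0 (28.3% and 22.7% of all probes). By the criterion of the methods the 3 counts were 3, 4 and 0. In Group D vs Group C the count was 0 with normexp and 1 with a median shift. At the adjusted threshold in Group D vs Group M it was 1 with normexp and 3 without dim probes. Leaving out 1 rat at a time gave 0 to 22, 0 to 19 and 0 to 0 at the adjusted threshold, and 7 to 24, 4 to 19 and 1 to 4 at the unadjusted one. In Group M vs Group C it was 24 without M6, 8 without C1, 7 without C3, 8 without C4 and 9 without M7 or M8. In Group D vs Group M it was 19 without M6, 7 without M5, 5 without M7, 4 without M8, 6 without D9 or D10 and 7 without D11. In Group D vs Group C it was 4 without C1, 2 without M5, M7, D10 or D11 and 1 without each other rat. Most counts without 1 rat, with normexp or with a median shift stand here without the share of all probes. They do not show whether members moved more than other probes. The cause of the changes in these counts was not tested.

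Replicate numbers of the groups equal the column on the slide. Deviations of the 10 same-numbered pairs correlated from -0.72 to 0.18, and 1 rat correlated best with its own number. Pairs with D12 were not among them, and an effect of litter or column was not tested. With the replicate number as a block the counts were 8, 5 and 1, also given without the share of all probes.

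Tier medians moved in Group M vs Group C to 0.79 (MAP4K) and 0.02 (MAP2K) with array weights, to 0.07 (MAP2K), -0.20 (adaptors) and 0.16 (classical Dusp) with normexp, and to 0.18 (MAP2K) over all probes of a gene. In Group D vs Group M they moved to -0.39 (MAP4K), 0 (MAP3K), 0.07 (MAPK) and 0.16 (adaptors) with 12 arrays, to -0.04 (MAP3K), -0.09 (MAP2K) and -0.07 (classical Dusp) with normexp, and to -0.09 (MAP2K) with quantile normalization. A median shift gave -0.10 (MAP2K), 0.30 (MAPK), 0.27 (adaptors) and 0.09 (other Dusp), and array weights 0.02 (MAP2K), 0.24 (adaptors) and -0.08 (other Dusp). In Group D vs Group C they moved to 0.04 (MAP4K), 0.19 (MAP3K), -0.16 (MAPK) and 0.24 (classical Dusp) with 12 arrays, and to -0.02 (MAP2K) and 0.07 (adaptors) with a median shift. Without 1 rat at a time they ran, in Group M vs Group C, from 0.39 to 0.82 (MAP4K), 0.07 to 0.21 (MAP3K) and -0.09 to 0.22 (MAP2K), in Group D vs Group M from -0.22 to 0.14 (MAP2K), 0.14 to 0.25 (adaptors) and -0.09 to 0.04 (other Dusp), and in Group D vs Group C from 0.04 to 0.13 (MAP3K), -0.15 to 0.01 (MAP2K) and 0.03 to 0.19 (other Dusp). Without the 4 members never above background, an alternative chosen after seeing the data, the medians of the adaptors and other Dusp genes moved by less than the spread between rats. Of single members, Map3k6 and Dusp14 in Group M vs Group C, and Map3k10 and the second probe of Map3k13 in Group D vs Group M, met the criterion of the methods and stayed at an unadjusted p of at most 0.01 under every alternative that was fitted with limma. With normexp, dim probes had smaller differences. Group M vs Group C gave 0.40 for Dusp10 and -0.28 for Map3k10. Group D vs Group M gave -0.39 for Dusp10, 0.43 for Map3k10 and -0.40 for the second probe of Map3k13, whose difference in Group D vs Group C was -0.24.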
